A study of Mus musculus with 3 samples.

Results

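The genes described here are 9 components of the metabotropic glutamate response of ON bipolar cells, Grm6, Trpm1, Gpr179, Nyx, Gnao1, Rgs11, Rgs7, Gng13 and Lrit3. They were listed by symbol for their known roles, with earlier results of these data known, and all 9 were found among the 32285 genes of the count tables. Retinal cells had been prepared from C57BL/6JRj mice of 3 ages, here called young (3 months), adult (12 months) and old (23 months), with no treatment or engineered allele in any group. For each age, retinal tissue from a pair of animals was combined, vessels were pelleted, and cells carrying CD31, an endothelial surface protein, were enriched on magnetic beads before droplet single-cell RNA sequencing. Each age gave 1 library, so there was no replicate, and age, animal pool and preparation cannot be told apart. The bipolar cells are neurons that came through the endothelial enrichment, so their share of the retina was not measured.

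Bipolar cells carry the signal of rods and cones to the inner retina. ON bipolar cells, which are the rod bipolar cells and a set of cone bipolar types, answer light with a sign reversal: in darkness photoreceptor glutamate holds the receptor mGluR6 (Grm6) active, its G protein Go (alpha subunit Gnao1, gamma subunit Gng13) keeps the cation channel TRPM1 closed, and light opens the channel. The orphan receptor GPR179 holds the GTPase-activating proteins RGS7 and RGS11 at the dendritic tip, where they speed the shut-off of Go. The leucine-rich repeat proteins nyctalopin (Nyx) and LRIT3 help place the channel at the synapse. OFF bipolar cells answer glutamate through ionotropic receptors instead. Loss of Grm6, Trpm1, Gpr179, Nyx or Lrit3 is a known cause of stationary night blindness.

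The genes lie on 7 chromosomes of GRCm38 by GENCODE M21, and all are protein coding. Grm6 (ENSMUSG00000000617) is at chr11:50850685-50866208 on the plus strand and Gpr179 (ENSMUSG00000070337) at chr11:97332109-97352077 on the minus strand. Trpm1 (ENSMUSG00000030523) is at chr7:64153835-64269775 on the plus strand and hosts the microRNA gene Mir211. Nyx (ENSMUSG00000051228) is at chrX:13466110-13489313 and Gnao1 (ENSMUSG00000031748) at chr8:93809966-93969388, both on the plus strand. Rgs7 (ENSMUSG00000026527) is at chr1:175059087-175492500 and Lrit3 (ENSMUSG00000093865) at chr3:129787881-129804030, both on the minus strand. Gng13 (ENSMUSG00000025739) is at chr17:25717171-25719406 and Rgs11 (ENSMUSG00000024186) at chr17:26202951-26211324, both on the plus strand. Gng13 overlaps the coding gene Chtf18 and Rgs11 overlaps Arhgdig, Grm6 and Gnao1 overlap annotated antisense genes, each on the other strand, and whether the counting used strand is not given in the sources used here.

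The 250 bases before the annotated start are shown for 3 genes that were high in ON bipolar cells and for Lrit3, which was not, since these genes parted by cell class below. They are RefSeq sequences on GRCm38.p6, read 5′ to 3′ on the gene's own strand, for Grm6 (chr11:50850435-50850684), Trpm1 (chr7:64153585-64153834, the first of 2 starts), Gpr179 (chr11:97352357-97352606) and Lrit3 (chr3:129804137-129804386). None of these windows overlaps an annotated exon. Capitals mark matches on either strand to TAATCC and TAATCT, the letters bound by the photoreceptor and bipolar homeobox factors of the OTX family, and to CANNTG, the E-box of basic helix-loop-helix factors.
Grm6: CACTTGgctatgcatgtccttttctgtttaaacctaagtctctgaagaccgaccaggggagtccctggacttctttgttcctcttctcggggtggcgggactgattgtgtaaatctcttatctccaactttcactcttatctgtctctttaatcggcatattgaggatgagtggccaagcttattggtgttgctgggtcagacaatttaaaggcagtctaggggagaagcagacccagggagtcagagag
Trpm1: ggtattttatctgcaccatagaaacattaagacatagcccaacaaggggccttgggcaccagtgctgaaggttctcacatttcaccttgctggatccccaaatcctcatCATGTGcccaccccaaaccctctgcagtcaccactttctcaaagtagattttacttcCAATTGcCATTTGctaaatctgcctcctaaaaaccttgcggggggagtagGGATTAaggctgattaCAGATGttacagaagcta
Gpr179: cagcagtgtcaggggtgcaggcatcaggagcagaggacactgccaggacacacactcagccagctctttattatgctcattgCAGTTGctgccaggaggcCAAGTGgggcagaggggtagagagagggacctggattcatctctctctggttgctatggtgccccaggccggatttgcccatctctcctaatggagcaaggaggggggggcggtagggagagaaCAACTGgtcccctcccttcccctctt
Lrit3: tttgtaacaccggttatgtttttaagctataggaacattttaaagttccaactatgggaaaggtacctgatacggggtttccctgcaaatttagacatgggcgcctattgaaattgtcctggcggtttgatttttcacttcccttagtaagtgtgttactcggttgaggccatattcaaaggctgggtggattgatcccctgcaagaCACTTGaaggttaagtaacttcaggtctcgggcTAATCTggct

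Trpm1 held 1 match to TAATCC and 4 to CANNTG, and Gpr179 held 3 to CANNTG. Grm6 held 1 match to CANNTG, and Lrit3 held 1 to TAATCT and 1 to CANNTG. Of 32851 mouse promoter windows of the same length, 6.25% held TAATCC, 7.31% held TAATCT and 66.2% held CANNTG, so the E-box letters are common. A match describes the letters of the window and not the binding of a factor. An entry was found for 8 of the 9 genes, all but Rgs11.

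The tables held 2491 young, 3243 adult and 2751 old barcodes, and the libraries shared 0 to 3 barcodes pairwise. Within the study's limits on genes and mitochondrial content, and with called doublets left out, 1705, 1957 and 1701 cells were kept, with median depths of 5964 to 6353 unique molecular identifiers (UMIs, 1 per captured transcript molecule) per cell. Cells were clustered without the 9 genes and their listed partners, and clusters were named from other marker genes, so no member chose the cells. There were 239 rod bipolar cells (87 young, 81 adult and 71 old), 164 ON cone bipolar cells (59, 56 and 49) and 171 OFF bipolar cells (54, 69 and 48). The ON marker Isl1 lay between 543 and 1238 UMIs per 1000000 UMIs of the class (CPM) in the 6 ON sub-clusters and at 8.5 or below in the 4 OFF sub-clusters, while Grik1, the OFF kainate receptor, lay between 358 and 1787 in OFF and at 83 or below in ON sub-clusters. Both were among the markers used for naming, so this contrast is partly set by the naming and is no separate check. A level is the summed UMIs of a gene in a class divided by all UMIs of that class and library. Intervals are exact 95% limits that cover counting error only, and with 1 library per age no p-value was computed.

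Grm6, the receptor itself, was found in ON bipolar cells and in no OFF bipolar cell. Its level in rod bipolar cells was 429, 468 and 365 CPM (young, adult and old library, the order kept below), and in ON cone bipolar cells 653, 658 and 657 CPM. The 3 ON cone values were nearly the same and lay above all rod bipolar values. In OFF bipolar cells 0 UMIs were counted in 171 cells, in every library, which allows a share of cells with a UMI of up to 1.75% by the limit of 3 counts in 171 cells. Against 3 counts per library as the limit, Grm6 was at least 48-fold (young), 68.7-fold (adult) and 37.6-fold (old) higher in ON than in OFF bipolar cells. A Grm6 UMI was found in 90.1 to 91.4% of rod bipolar and 85.7 to 92.9% of ON cone bipolar cells, against 0 to 0.472% of endothelial cells of the same libraries, which served as the level of free RNA. When each cell was assigned to a class by its own summed markers instead, 99 Grm6 UMIs fell in 30 cells assigned to OFF, of which 29 lay in the ON cone clusters and 0 in the OFF clusters. Median depths were 8102 UMIs in rod bipolar and 5518 in ON cone bipolar cells.

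Trpm1, the cation channel that the cascade gates, was high in ON bipolar cells and present at a lower level in OFF bipolar cells. Rod bipolar cells held 3775, 3478 and 3245 CPM (young, adult, old) and ON cone bipolar cells 1406, 1623 and 1432. OFF bipolar cells held 237, 262 and 166 CPM, with a UMI in 41.7 to 55.6% of the cells, against 0.316 to 3.36 CPM and 0.236 to 2.49% of endothelial cells. The groups did not overlap, and the ON to OFF ratio was 12.6 (9.94 to 16.3), 11 (9.02 to 13.5) and 16 (11.8 to 22.4). Of the 171 OFF cells, 86 held Trpm1 and 0 held Grm6, whereas 216 of 239 rod bipolar and 135 of 164 ON cone bipolar cells held both.

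Gng13, the gamma subunit of Go, gave the most UMIs of the 9 genes. Its level was 7071, 8299 and 8784 CPM in rod bipolar cells and 5252, 5624 and 7220 in ON cone bipolar cells. OFF bipolar cells held 1290, 1299 and 1478 CPM and endothelial cells 2.21 to 6.15. OFF cells thus lay below ON cells in every library, by a ratio of 5.02 (4.52 to 5.59), 5.72 (5.23 to 6.27) and 5.61 (5.05 to 6.25), yet far above the free-RNA level. The ratio to Grm6 differed too: rod bipolar cells held 5.28 Grm6 UMIs per 100 of Gng13 (4.92 to 5.67), and OFF cells held 0 beside 1240 Gng13 UMIs (0 to 0.298).

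Gnao1, the alpha subunit of Go, is used widely in neurons. Rod bipolar cells held 1410, 1559 and 1352 CPM, ON cone bipolar cells 731, 749 and 698, and OFF bipolar cells 199, 241 and 227. ON exceeded OFF 5.97-fold (4.58 to 7.93), 5.38-fold (4.36 to 6.7) and 5.03-fold (3.84 to 6.71). Amacrine cells, inhibitory interneurons with 53 cells in all, held 205 CPM pooled over the libraries and Müller glia 147, both above the 1.89 to 4.75 CPM of endothelial cells.

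Gpr179, the anchor of the RGS proteins, followed Trpm1 among bipolar cells. It stood at 685, 553 and 552 CPM in rod bipolar cells, 375, 403 and 258 in ON cone bipolar cells and 45.3, 25.7 and 52.8 in OFF bipolar cells. The ON to OFF ratio was 12.9 (7.47 to 24.3), 19.7 (10.6 to 41.2) and 8.69 (5.02 to 16.5). Amacrine cells and cones held 0 UMIs of Gpr179 in every library.

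The paired GTPase activators parted between the ON classes. Rgs11 was at 227, 202 and 194 CPM in rod bipolar and 192, 300 and 218 CPM in ON cone bipolar cells, so the classes overlapped. Rgs7 was at 334, 253 and 303 CPM in rod bipolar cells but at 48, 42.5 and 55.4 in ON cone bipolar cells, with no overlap. Per 100 Rgs11 UMIs, rod bipolar cells held 142 Rgs7 UMIs (125 to 162) and ON cone bipolar cells 20.3 (14.4 to 28), and each of the 3 libraries showed the difference, with 125 to 157 against 14.1 to 25.4. OFF bipolar cells held 31.4, 77 and 24.4 CPM of Rgs7 and 66.3, 77 and 40.6 CPM of Rgs11. Both transcripts were found in 156 of 239 rod bipolar but in 23 of 164 ON cone bipolar cells, where 82 held Rgs11 alone. Cell depth was lower in the ON cone class, as given above.

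Nyx, which codes for nyctalopin, was a low transcript in all ON cells. Rod bipolar cells held 76.1, 67.9 and 70.2 CPM and ON cone bipolar cells 105, 97.1 and 84.9. OFF bipolar cells held 3.49, 28.2 and 12.2 CPM, from 1, 11 and 3 UMIs, and the ON to OFF ratio ranged from 2.74 (1.45 to 5.7) in the adult to 24.5 (4.29 to 980) in the young library. The OFF values thus rest on few counts.

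Lrit3 was in photoreceptors and all but absent from bipolar cells. Cones held 52.9, 61.2 and 68.4 CPM, with a UMI in 28.6, 32.4 and 34.7% of the cells, and rods 22.9, 17.2 and 26.3 CPM. In 574 bipolar cells of all classes there were 3 Lrit3 UMIs, 1 each in rod bipolar, ON cone bipolar and OFF bipolar cells, or 0.51 to 1.08 CPM, near the 0 to 0.632 CPM of endothelial cells. Cones exceeded rods 2.31-fold (1.1 to 5.17), 3.56-fold (1.98 to 6.69) and 2.6-fold (1.4 to 5.04). The rod values rest on 44 UMIs in all and the cone values on 101.

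Read as a list, 8 of the 9 genes had at least 20 UMIs over ON and OFF bipolar cells, and 8 of these 8 were at least 2-fold higher in ON cells in each of the 3 libraries. Of 10220 genes measured in the same way, 3.59% were. The median log2 ratio was 2.53 for the 8 genes and -0.23 for all genes, and it does not depend on the value given to Grm6, which was the highest of them at its lower limit too. Taking the ON classes singly, rod bipolar cells were 2-fold above OFF cells for 8 of 8 genes (4.07% of all genes) and ON cone bipolar cells for 7 of 8 (2.27%). The exception was Rgs7, whose ON cone to OFF ratio was 1.53 (0.636 to 3.92), 0.551 (0.27 to 1.07) and 2.27 (0.833 to 7.15).

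**Figure D1:**
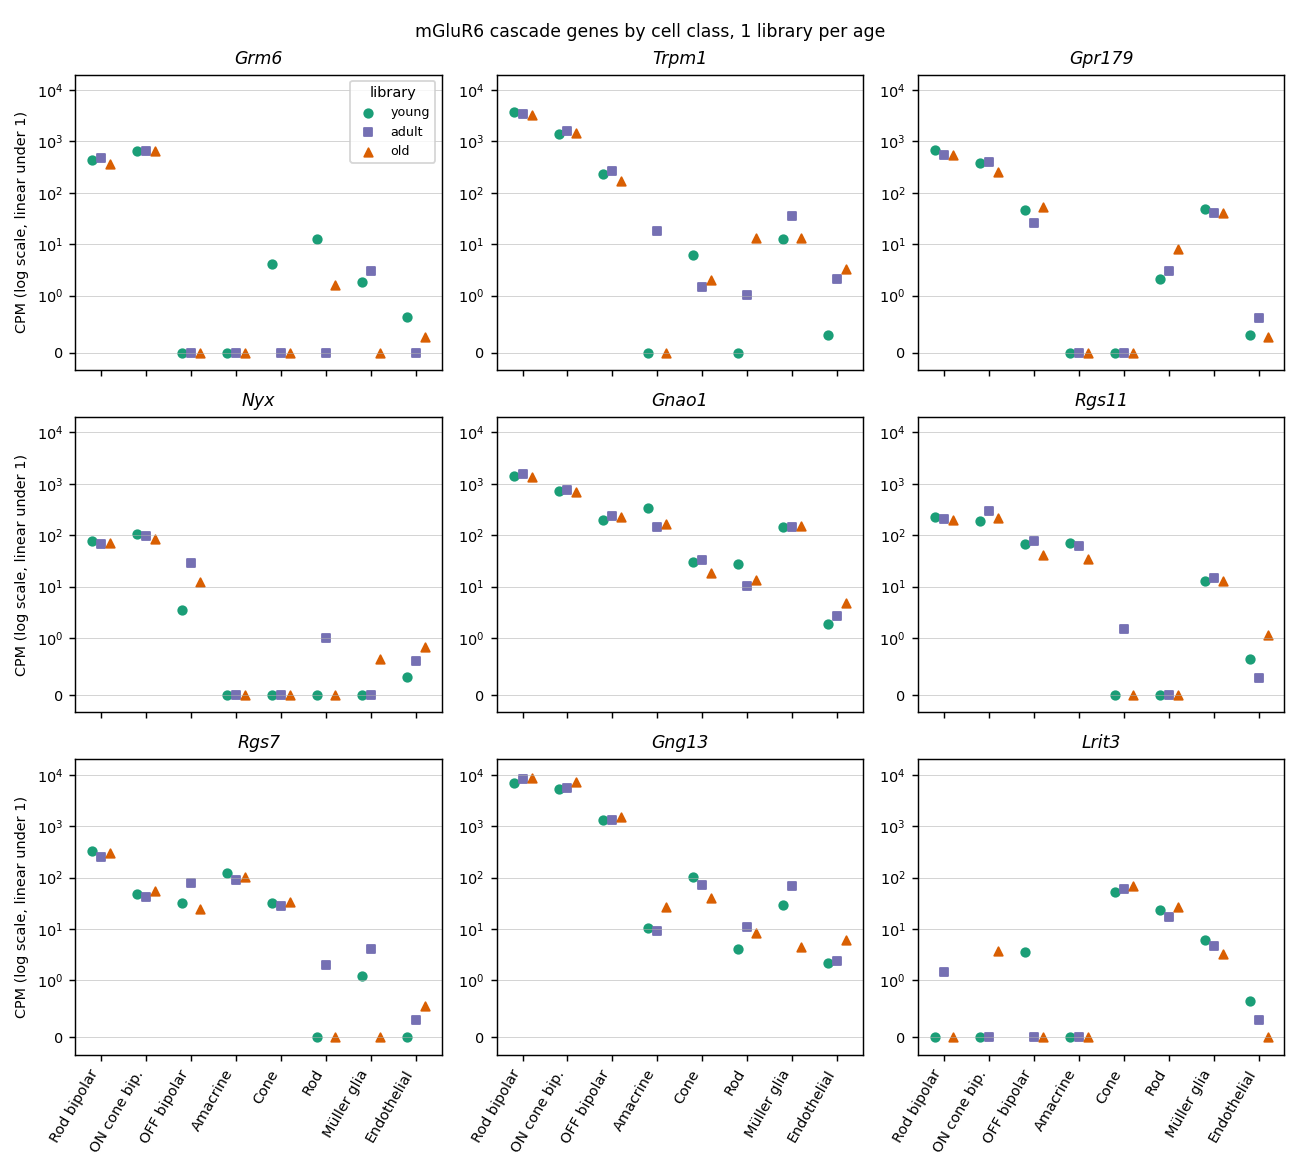
Level of each gene in CPM (log axis, linear under 1) in 8 cell classes, with 1 point per library (circle young, square adult, triangle old) and no error bar. Grm6 sits at 0 in all 3 OFF bipolar libraries, the other genes but Rgs7 and Lrit3 step down from both ON classes to OFF bipolar cells, Rgs7 overlaps between ON cone and OFF bipolar cells, and Lrit3 stands highest in cones.

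Counting genes cell by cell gave the same order of classes. After each cell was thinned to 2000 UMIs and shallower cells were left out (2 rod bipolar, 6 ON cone bipolar and 9 OFF bipolar cells), the median cell held a UMI of 5 of the 9 genes in the rod bipolar class, 4 in the ON cone class and 1 in the OFF class. At least 5 genes were found in 152 of 237 rod bipolar cells (64.1%) and 63 of 158 ON cone bipolar cells (39.9%), and in 0 of 162 OFF bipolar cells. By library the share was 74.4, 58 and 58.6% in rod bipolar and 36.8, 44.4 and 38.3% in ON cone bipolar cells. Most Müller glia, 328 of 539, held none of the 9 at this depth.

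**Figure D2:**
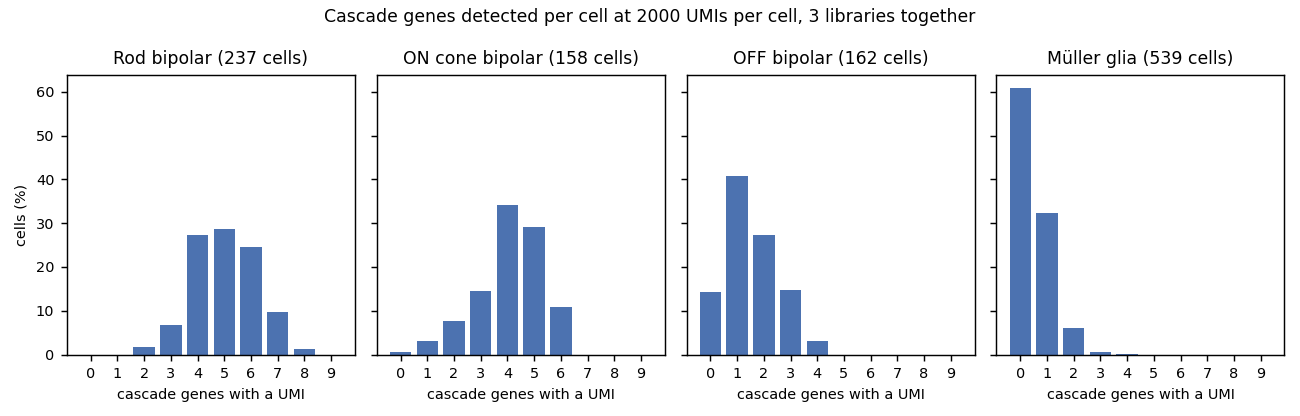
Share of cells (%) by the number of the 9 genes with a UMI, each cell thinned to 2000 UMIs and the 3 libraries pooled. Rod bipolar cells centre on 5 genes, ON cone bipolar cells on 4 and OFF bipolar cells on 1, and Müller glia mostly hold 0.

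Rod bipolar and ON cone bipolar cells both carry the cascade, and they differed in its proportions. Rgs7 was 6.96-fold (4.19 to 12.4), 5.95-fold (3.45 to 11.1) and 5.48-fold (3.23 to 9.99) higher in rod bipolar cells of the young, adult and old library. Trpm1 was 2.69-fold (2.43 to 2.97), 2.14-fold (1.95 to 2.36) and 2.27-fold (2.03 to 2.53) higher. These 2 of 8 measured genes were at least 2-fold higher in rod bipolar cells in every library, as were 2.85% of 9320 genes, and 0 were at least 2-fold lower, against 7.36%. Without rod bipolar sub-cluster 7, described below, 1 of 8 was past 2-fold in every library: Trpm1, at 3282, 2880 and 2781 CPM in sub-cluster 0, stayed under 2-fold in the adult and old libraries. The count was also 1 after thinning, with the mean of per-cell CPM or with classes from each cell's own markers, and 4 with stricter limits that left 9, 2 and 14 rod bipolar cells. Gnao1 was close to that fold, at 1.93 (1.67 to 2.23), 2.08 (1.81 to 2.4) and 1.94 (1.65 to 2.28).

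Gpr179 was 1.83-fold (1.5 to 2.25), 1.37-fold (1.12 to 1.68) and 2.14-fold (1.64 to 2.81) higher in rod bipolar cells. Gng13 was 1.35-fold (1.27 to 1.42), 1.48-fold (1.4 to 1.56) and 1.22-fold (1.15 to 1.28) higher. Grm6 went the other way, with a rod bipolar to ON cone ratio of 0.656 (0.549 to 0.786), 0.711 (0.597 to 0.848) and 0.555 (0.453 to 0.682), and Nyx had ratios of 0.699 to 0.827 whose intervals all held 1. Relative to the channel transcript, ON cone bipolar cells therefore held more receptor transcript: 44 Grm6 UMIs per 100 of Trpm1 (40 to 48.5) against 12.1 (11.2 to 13). The median log2 ratio of the 8 genes was 0.61 and that of all genes -0.27. Mitochondrial UMIs took a median 15.8% of a rod bipolar cell and 8.84% of an ON cone bipolar cell, and on a scale without mitochondrial genes the mean log2 ratios of Trpm1, Gng13 and Grm6 were 1.33, 0.52 and -0.55.

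**Figure D3:**
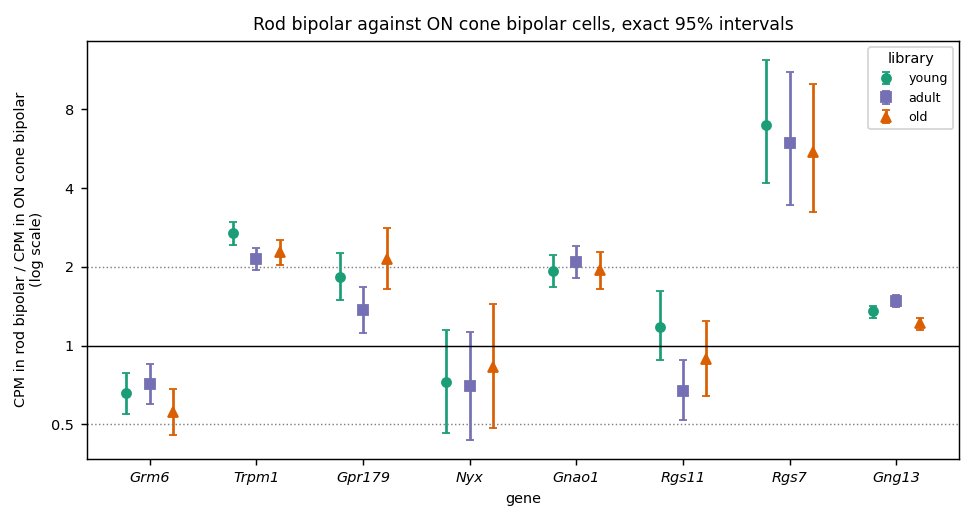
Ratio of CPM in rod bipolar to CPM in ON cone bipolar cells (log axis) for 8 genes, 1 point per library with its exact 95% interval and dotted lines at 2-fold and 0.5. Rgs7 and Trpm1 lie above 2 in all 3 libraries, and the Grm6 intervals lie below 1.

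Within the ON classes the genes also varied between sub-clusters, which were set without them. Of the 4 ON cone sub-clusters, number 2 (70 cells, led by Cck and Cnmd) held 891 CPM of Grm6, 2310 of Trpm1 and 360 of Rgs11. Number 6 (37 cells, led by Cntn5 and Cabp5) held 430, 639 and 75.2 CPM of these genes but 177 of Nyx, against 69.2 to 82.9 in the other ON cone sub-clusters, all summed over libraries. In the young library Nyx was not highest there, at 131 CPM from 11 UMIs against 143 from 16 in number 2. Number 8 (29 cells, led by Igfn1) held 4.6 CPM of Rgs7 and 7285 of Gng13. In number 9 (28 cells, led by Cpne9) Gng13 was at 2981 CPM. Summed over libraries, Gpr179 and Gnao1 were the most even of these genes, at 316 to 408 and 626 to 886 CPM. By library Gpr179 ran wider, from 304 to 485 CPM (young), 230 to 495 (adult) and 193 to 457 (old).

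Rod bipolar cells formed a main sub-cluster, number 0 with 204 cells, and a small one, number 7 with 35 cells (12 young, 13 adult and 10 old). Number 7 held 5563 CPM of Trpm1, 2082 of Gnao1, 963 of Gpr179 and 461 of Rgs7, where number 0 held 2992, 1284, 506 and 254. Gng13 ran the other way, at 3118 against 9259 CPM. The cells of number 7 were deeper, with a median of 11507 UMIs against 7753, and ribosomal protein genes took 1.76% of their UMIs against 6.51%; the part of RNA content or cell state in these differences was not tested.

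Among OFF bipolar cells Gng13, Trpm1, Rgs11 and Gpr179 were highest in sub-cluster 10, a group of 17 cells led by Neto1 and Tacr3 (5 young, 8 adult and 4 old). It held 4236 CPM of Gng13, 585 of Trpm1, 220 of Rgs11 and 199 of Gpr179, with Trpm1 in 100% of its cells. These cells were deeper, with a median of 8427 UMIs against 5152 in the whole OFF class. Mitochondrial UMIs took a median 13.2% against 8.42%, and the part of depth or cell state in these values was not tested. The other 3 OFF sub-clusters held 450 to 1319 CPM of Gng13, 46.7 to 302 of Trpm1, 4.25 to 49 of Rgs11 and 0 to 13.1 of Gpr179. Rgs7 in sub-cluster 10 was at 20.6 CPM (4.25 to 60.3), from 3 UMIs that all lay in the adult library, against 32.7 to 85 CPM in the others, and Nyx was split between sub-clusters 10 (7 UMIs, 48.1 CPM) and 4 (8 UMIs, 34 CPM). Sub-cluster 10 thus had Gng13 and Rgs11 in the range of the ON cone sub-clusters, with Grm6 and Isl1 at 0 and Grik1 at 358 CPM. Without it the median log2 ON to OFF ratio of the 8 genes was 3.35, and that of Gpr179 was 5.55.

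**Figure D4:**
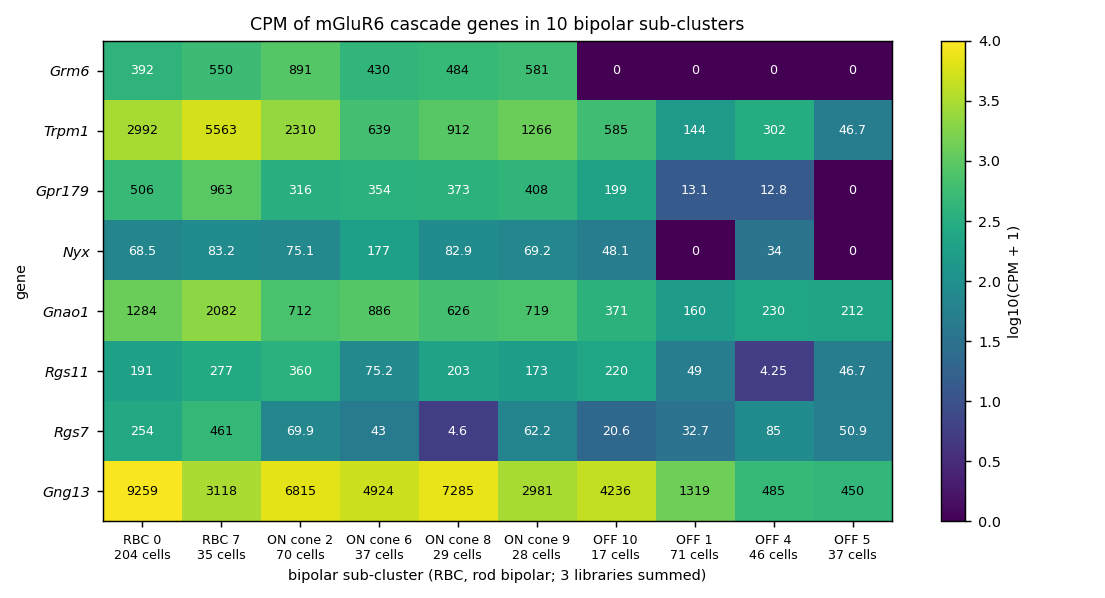
CPM of 8 genes (rows) in 10 bipolar sub-clusters (columns), 3 libraries summed, coloured by log10(CPM + 1) with the CPM printed in each cell. Grm6 is at 0 in the 4 OFF columns, and OFF sub-cluster 10 holds Gng13, Trpm1, Rgs11 and Gpr179 at 4236, 585, 220 and 199 CPM.

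The age comparison asked whether the cascade's transcripts differed between the young, adult and old libraries. In rod bipolar cells 8 of the 9 genes were measured, and 0 of 8 passed 1.5-fold in either direction between old and young, where 18.8% of 6600 genes did. Between adult and young 0 of 8 passed, against 16.5%. After thinning to 2000 UMIs 1 passed in the adult library, and 3 passed in the old one with stricter limits that left 9 young and 14 old cells. The share over all genes includes many with few UMIs and fell to 8.75% and 7.21% among genes with at least 50 UMIs. The median log2 old to young ratio was -0.18 for the 8 genes and 0.04 for all genes, with 1 gene higher and 7 lower.

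Gng13 was the gene higher in the old library, at 8784 against 7071 CPM, a ratio of 1.24 (1.19 to 1.29). Trpm1 was lower, at 0.86 (0.81 to 0.912), and so was Gpr179, at 0.805 (0.697 to 0.93). The other intervals held 1: Grm6 0.851 (0.71 to 1.02), Gnao1 0.959 (0.872 to 1.05), Rgs7 0.909 (0.742 to 1.11), Rgs11 0.853 (0.664 to 1.09) and Nyx 0.923 (0.598 to 1.42). The adult library sat between the others for Gng13 (ratio to young 1.17, 1.13 to 1.22) and Trpm1 (0.921, 0.871 to 0.974) and beside the old one for Gpr179 (0.807, 0.703 to 0.926). Rgs7 was lower in the adult library, at 0.757 (0.618 to 0.926), and Gnao1 higher, at 1.11 (1.01 to 1.21). Against the adult library, the old one was lower for Grm6 at 0.78 (0.653 to 0.93) and Gnao1 at 0.867 (0.79 to 0.951). Trpm1 was lower there too, at 0.933 (0.878 to 0.991), and Gng13 higher, at 1.06 (1.02 to 1.1). Within sub-cluster 0 alone, the old to young log2 ratios of Gng13, Trpm1 and Gpr179 were 0.30, -0.24 and -0.48. In the small sub-cluster 7 Gpr179 was at 1011 (young) and 1041 CPM (old), and with all rod bipolar cells thinned to 2000 UMIs the Gpr179 log2 ratio was -0.00, so its lower level did not hold under these settings.

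Several measures moved between the rod bipolar libraries at the same time. Ribosomal protein genes took a median 5.94, 6.21 and 6.72% of the UMIs of a cell (young, adult, old), mitochondrial genes 16.1, 16.5 and 13.6%, and the median depth was 7532, 8303 and 8432 UMIs. The 6 Müller glia markers summed to 48.3, 67.9 and 89.1 CPM in these cells, or 0.269 to 0.48% of their level in Müller glia, and the 8 rod markers to 208, 173 and 152 CPM. The 8 cone markers summed to 33.7, 31.8 and 75.4 CPM, the 8 endothelial markers to 20.5, 30.3 and 41.1, the 8 pericyte and mural markers to 22, 67.9 and 10.3, and the 12 OFF bipolar markers to 43.9, 28.9 and 12. The 9 ON cone bipolar markers are not all foreign to rod bipolar cells, since they include Isl1 and Pcp2, a leading gene of sub-cluster 0. They summed to 10742, 12505 and 13088 CPM, of which Isl1 made up 858, 964 and 805. Alternatives with thinned cells and without mitochondrial genes were run, and the part of the other measures in the result was not tested. Over all alternatives the old to young log2 ratio was 0.26 to 0.94 for Gng13 and -0.58 to -0.19 for Trpm1.

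In ON cone bipolar cells 0 of 8 genes passed 1.5-fold between old and young, against 22.8% of 5078 genes, and the median log2 ratio was 0.02. Gng13 was again higher in the old library, 7220 against 5252 CPM, with a ratio of 1.37 (1.29 to 1.47), and Gpr179 lower, 258 against 375 CPM, at 0.69 (0.507 to 0.931). Grm6 had a ratio of 1.01 (0.82 to 1.23) and Trpm1 of 1.02 (0.888 to 1.17). Between adult and young 1 of 8 passed, against 19.2% of genes: Rgs11 at 1.57 (1.13 to 2.18), from 99 and 64 UMIs. Both shares over all genes were lower among genes with at least 50 UMIs, as given in the last section. The make-up of the class also shifted. Sub-cluster 2, high in Grm6, Trpm1, Gng13 and Rgs11, made up 33.9% of the class in the young library (20 cells), 42.9% in the adult (24 cells) and 53.1% in the old (26 cells). Rgs11 in the adult against the young library was at 482 against 313 CPM in sub-cluster 2 and 30.6 against 107 in 6. It was at 304 against 150 in sub-cluster 8 and 183 against 136 in 9, from 2 to 63 UMIs each. With the 4 sub-clusters weighted equally in each library the old to young log2 ratio was 0.36 for Gng13 and -0.46 for Gpr179, and within sub-cluster 2 alone it was 0.55 and -0.40. Gng13 was higher in the old than the young library in sub-clusters 2 (8012 against 5482 CPM) and 8 (9492 against 6372), and its intervals overlapped in sub-clusters 6 (4790 against 4928) and 9 (3541 against 3397). Gpr179 was at 457 (old) and 406 CPM (young) in sub-cluster 6 and lower in the old library in the other 3, with overlapping intervals in each. For Grm6 it was -0.07 with equal weights and -0.28 within sub-cluster 2, and Grm6 was lower in the old than the young library in sub-clusters 2 (801 against 975 CPM), 6 (269 against 501) and 8 (386 against 520) and higher in sub-cluster 9 (859 against 427), from 10 to 115 UMIs each. Nyx in sub-cluster 2 had a log2 ratio of -1.78, from 6 old and 16 young UMIs, and Trpm1 there one of -0.56. In the old against the young library Nyx was at 242 against 131 CPM in sub-cluster 6. It was at 19.3 against 69.4 in sub-cluster 8 and 182 against 38.8 in sub-cluster 9. Trpm1 was at 780 against 537 CPM in sub-cluster 6, 965 against 914 in 8 and 1510 against 1107 in 9. The old to young count of genes past 1.5-fold was 1 or 2 in place of 0 under 4 alternatives. Ribosomal protein genes took 6.14, 6.01 and 7.32% of a cell's UMIs in the 3 libraries, the 7 rod bipolar markers summed to 330, 385 and 642 CPM in these cells, and the 8 cone markers to 1867, 2166 and 1344 CPM. The pericyte and mural markers summed to 33, 322 and 66.4 CPM, the endothelial to 297, 234 and 177, the OFF bipolar to 749, 883 and 620, the rod to 216, 403 and 196 and the Müller glia markers to 89.9, 118 and 88.6. The part of these in the age values was not tested.

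**Figure D5:**
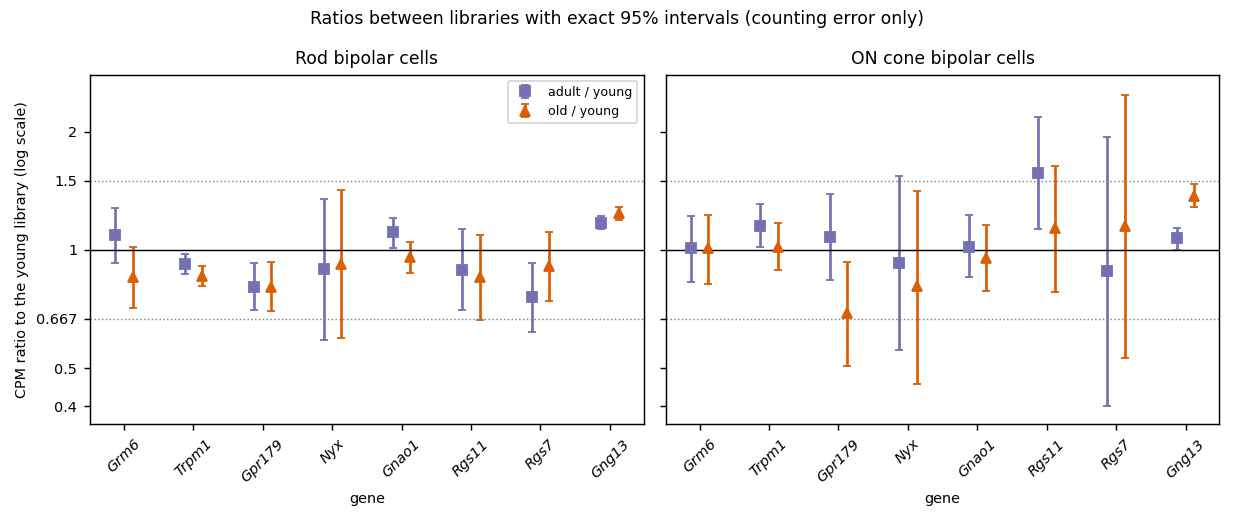
Ratio of CPM in the adult (squares) and old (triangles) library to CPM in the young library (log axis) for 8 genes, in rod bipolar cells on the left and ON cone bipolar cells on the right, with exact 95% intervals for counting error and dotted lines at 1.5-fold. The points lie inside the dotted lines except for Rgs11 in adult ON cone bipolar cells, at 1.57.

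OFF bipolar cells gave too few UMIs for some of these genes to be measured. Between old and young 5 were measured and 1 passed 1.5-fold (21.3% of all genes), Rgs11 at 0.613 (0.255 to 1.39), from 10 and 19 UMIs. Between adult and young 6 were measured and 2 passed (18.9%), Rgs7 at 2.45 (1.14 to 5.88) and Gpr179 at 0.566 (0.222 to 1.4). Gng13, the one with the most counts, had ratios of 1.15 (0.988 to 1.33) and 1.01 (0.879 to 1.15), and Grm6 stayed at 0 UMIs.

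Outside the bipolar cells the members separated by gene. In Müller glia, the radial glia of the retina, Gpr179 stood at 47.4, 40.5 and 40.8 CPM with a UMI in 32.4, 26 and 21.2% of cells, and Gnao1 at 145, 146 and 152 CPM, where endothelial cells held 0.28 to 0.604 CPM of Gpr179. In the 516 of 605 Müller glia that had no UMI of Gng13, Trpm1 or Grm6, Gpr179 was still at 40.3 CPM (34.5 to 46.8) in 24.4% of cells and Gnao1 at 148 CPM (136 to 160). Müller glia held 119 Gpr179 UMIs per 100 of Gng13 (97.3 to 145) over the libraries together, and rod bipolar cells 7.47 (7.03 to 7.93). By library the Müller glia value was 165, 59.8 and 914, from 48, 132 and 7 Gng13 UMIs, so the pooled value depends on the adult library. The Gng13 of Müller glia, 187 UMIs in all, lay to 77.5% in 5 cells, whereas the 5 highest cells held 10.4% of the Gpr179 UMIs. Thinned to 2000 UMIs, Gpr179 was found in 7.04 to 9.88% of Müller glia by library.

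Cones held Rgs7 at 32.5, 28.3 and 34.2 CPM and, at 1 UMI in all, almost no Rgs11. Their Gng13 was at 102, 71.6 and 40.2 CPM in 31.4, 24.5 and 16.7% of cells, and the old to young ratio was 0.395 (0.223 to 0.676), opposite to both ON bipolar classes. Trpm1 came to 4.24 UMIs per 100 of Gng13 in cones (1.35 to 10.2), against 25 in ON cone and 43.8 in rod bipolar cells. Amacrine cells, at 16 to 19 per library too few for a comparison by age, held Rgs7 at 104 CPM and Rgs11 at 53.4 CPM pooled, with Grm6, Gpr179, Nyx and Lrit3 at 0 UMIs. Rods held at most 27.1 CPM of any member in any library, and the highest were Gnao1 and Lrit3.

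Among the listed partners, both G protein beta subunits were higher in ON than in OFF cells. Of 6 postsynaptic partners measured, 2 were at least 2-fold higher in ON than OFF cells in every library, as were 3.59% of all genes. Gnb3, the beta subunit of Go in these cells, was at 1314, 1389 and 1405 CPM in rod bipolar, 1523, 1653 and 1842 in ON cone bipolar and 122, 128 and 134 in OFF bipolar cells, a ratio of 11.3 (8.11 to 16.3), 11.5 (8.66 to 15.5) and 11.5 (8.16 to 16.8). Gnb5, the obligate partner of the R7 RGS proteins, was at 388, 394 and 416 CPM in rod bipolar, 390, 425 and 428 in ON cone bipolar and 55.8, 116 and 77.1 in OFF bipolar cells. Gnb5 did not share the Rgs7 difference between the ON classes. Rgs7bp, a membrane anchor of these complexes, was at 64.4 to 68.5 CPM in rod bipolar and 105 to 188 CPM in ON cone bipolar cells, against 34.9 to 60.9 in OFF bipolar cells, so it passed 2-fold over OFF in every library in the ON cone class alone. Rgs9bp was at 32.6 to 54.2 and 51 to 81.9 CPM.

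Of 2 measured genes of other metabotropic glutamate receptors, Grm5 followed Grm6, with 370, 440 and 326 CPM in rod bipolar, 426, 437 and 362 in ON cone bipolar and 13.9, 15.4 and 32.5 in OFF bipolar cells. Grm7, a presynaptic receptor, was at 0 to 3.43 CPM in rod bipolar and 25.8 to 57 CPM in ON cone bipolar cells. Grm8 held 3 UMIs in all bipolar cells, and Grm2, Grm3 and Grm4 0. In the TRPM family 1 of 2 measured genes was at least 2-fold lower in ON cells in every library, as were 5.89% of all genes: Trpm3 was at 129, 159 and 207 CPM in OFF bipolar and at most 2.89 and 21 CPM in rod bipolar and ON cone bipolar cells, the reverse of Trpm1. Trpm7 was at 49.7 to 107 CPM in all 3 classes.

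Of 4 measured genes among the R7 RGS relatives and other alpha subunits, 1 was at least 2-fold lower in ON cells in every library, as were 5.89% of all genes. It was Gnaz, with 23.1 to 38.4 CPM in OFF against 0 to 12.1 CPM in the ON classes. With the ON classes taken singly, 1 of 3 was lower in rod bipolar cells (9.57% of all genes) and 0 of 4 in ON cone bipolar cells. Gnai2 was at 83.4 to 135 CPM in rod bipolar and 107 to 185 CPM in ON cone bipolar cells. Of 5 ionotropic receptor genes measured, 2 were at least 2-fold lower in ON cells in every library, Gria2 and Gria4, against the same 5.89% of all genes. Both calls held for rod bipolar cells alone, with 2 of 5 lower (9.57% of all genes), and 0 of 5 were lower in ON cone bipolar cells. Gria2, the AMPA receptor subunit that limits calcium entry, was at 1060, 940 and 796 CPM in OFF bipolar and 752, 783 and 657 in ON cone bipolar cells, but at 8.78, 0 and 3.43 in rod bipolar cells. Gria1 was at 82.2 to 88.1 CPM in rod bipolar against 18.5 to 39.4 in ON cone bipolar cells, which made 1 of 4 measured genes of the list at least 2-fold higher (2.85% of all genes) and 1 of 4, Gria2, lower (7.36%) in rod bipolar cells in every library. Of 8 measured genes of the photoreceptor side of the synapse, 0 were at least 2-fold higher or lower in ON than OFF cells in every library. Between rod bipolar and OFF cells 1 of 8, Elfn2, was lower in every library, as were 9.57% of all genes, at 39.5, 34.7 and 25.7 against 119, 103 and 122 CPM. Slc17a7, the vesicular glutamate transporter, was at 422 to 529 CPM in rod bipolar, 639 to 710 in ON cone bipolar and 743 to 889 in OFF bipolar cells, and 940 to 1209 in rods.

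By age, the postsynaptic partners gave 0 of 5 measured genes above and 1 below 1.5-fold in old rod bipolar cells, where 18.8% of all genes passed in either direction, and 0 of 5 in old ON cone bipolar cells, where 22.8% did. Between adult and young, 1 of 5 was above and 0 below in rod bipolar cells (16.5% of all genes), and 2 of 5 were above and 1 below in ON cone bipolar cells (19.2%). The latter were Rgs7bp at 1.79 (1.17 to 2.8), Rgs9bp at 1.61 (0.845 to 3.14) and Gpr158 at 0.506 (0.173 to 1.34). Gnb3 had old to young ratios of 1.07 (0.971 to 1.18) and 1.21 (1.07 to 1.37) in these classes and Gnb5 of 1.07 (0.898 to 1.28) and 1.1 (0.848 to 1.42). The gene below in old rod bipolar cells was Rgs9bp, at 0.601 (0.327 to 1.07).

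The genes whose levels were most like those of Grm6 were ranked by Pearson's r of log2(CPM + 10) over 24 points, 8 classes in 3 libraries, among 13113 genes with at least 100 UMIs. The points share libraries, and the ranking is a description. Isl1 came first (r = 0.989), followed by Chst9 (0.971), Igfn1 (0.970), Cnmd (0.962), Grm5 (0.962), Bhlhe23 (0.955), Insyn2a (0.952), Gm30382 (0.946), Zfp879 (0.942) and Dusp15 (0.940). Isl1, Igfn1, Cnmd and Bhlhe23 were markers used to name the bipolar classes, so their place is partly set by the naming. Chst9, a sulfotransferase gene, was at 65.1 to 77.6 CPM in rod bipolar, 48.5 to 59.1 in ON cone bipolar and 0 in OFF bipolar cells. Of the other members Nyx ranked 12 (0.936), Gpr179 33 (0.888), Trpm1 41 (0.876), Rgs11 47 (0.861), Gng13 86 (0.813), Gnao1 90 (0.808) and Rgs7 242 (0.725), while Lrit3 was at 10264 (-0.317). With a pseudocount of 1 in place of 10, 4 of the 10 leading genes were shared.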

How the data were processed

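The authors deposited raw counts: whole UMIs per gene and barcode, made with Cell Ranger 6.1.2 on mm10 per the submitters' processing notes. Libraries were grouped by the labelled age. The 9 genes, partner lists and tests were chosen with earlier results of these data known.

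Cells with 500 to 6000 genes and 1 to 20% mitochondrial UMIs were kept, and 37 doublets called by Scrublet (scanpy 1.11.5) among 5400 cells were removed, a low number, so doublets may remain. Cells were integrated and clustered in Seurat 5.3.0 (R 4.3.3; 2000 features, 30 components, resolution 0.5), leaving 48 cascade and partner genes out of the features, and bipolar and amacrine cells were clustered again (1000 features, 15 components). A cluster needed 3 fixed markers, each in at least 20% of cells and at 20% of its highest level; these thresholds were set after the clusters were seen, and clusters where more than 1 marker list reached 50% were called mixed. UMIs were summed per class and library. Ratios carry exact conditional 95% intervals, levels exact Poisson and shares Clopper-Pearson intervals (scipy 1.17.1), for counting error only. A gene counted as measured with at least 20 UMIs over the groups compared. Lists were counted at 1.5-fold between ages and 2-fold between classes, with 0.5 counts added for the counts over all genes. All 9 genes are named, and of each partner list up to 4 genes with the most bipolar UMIs. A gene named for a count of 5 or fewer, such as Gria4 or Gpr158, was named after its values were seen. The interval and thinning steps were tested on simulated data. Total depth was 16577026 to 19977238 UMIs per library.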

Additional observations from a re-analysis of the deposited data

Results flagged for a closer look

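In cells that entered no comparison above, Trpm1 was found above the endothelial level. Retinal pigment epithelium cells held 52.8 CPM of Trpm1 (32.7 to 80.7) and 80.4 CPM of Gnao1 (55 to 114) over 79 cells, 58 of them in the old library. By library Trpm1 there was at 15.7, 173 and 41.7 CPM, from 1, 8 and 12 UMIs. A cluster of 36 adult cells led by crystallin genes, which no marker list named, held 69.8 CPM of Trpm1 (52.7 to 90.6), with a UMI in 26 of the cells. Its Gng13, 53 UMIs, lay in 1 cell.

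In the adult against the young library, intervals of some members lay on opposite sides of 1 in different bipolar classes. Trpm1 had a ratio of 1.15 in ON cone bipolar and 0.921 in rod bipolar cells. Rgs7 had a ratio of 2.45 in OFF bipolar cells, from 30 and 9 UMIs, and 0.757 in rod bipolar cells. With 1 library per age the differences between classes were not tested.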

How the results depend on the processing

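No paired analysis was possible because each age had 1 library. Alternatives on sub-clusters, on ON cone cells alone and without mitochondrial genes were chosen after seeing the data. Of single-gene log2 ratios under the alternatives, 77 of 77 for ON against OFF (7 genes, without Grm6, which has no OFF UMIs to form a ratio), 86 of 88 for rod bipolar against ON cone, 84 of 87 in each age comparison of rod bipolar cells, and 79 (old) and 78 (adult) of 94 in those of ON cone bipolar cells had the direction of the main value. Sizes moved more: 23 of the 77 and 21 of the 88 lay outside the main value's 95% counting interval, with the Rgs7 ON to OFF log2 ratio at 0.29 for ON cone cells alone and the Gng13 rod bipolar to ON cone one at 0.01 under the stricter limits given next. With 1000 to 6000 genes and at most 10% mitochondrial UMIs, 9, 2 and 14 rod bipolar cells were left; 3 genes then passed 1.5-fold between old and young in rod bipolar and 1 in ON cone bipolar cells, 4 were 2-fold above ON cone cells, and the adult to young log2 ratios of Gnao1 in rod bipolar (-0.08) and Gng13 in ON cone bipolar cells (-0.04) reversed. Thinning gave 1 gene past 1.5-fold in adult rod bipolar and 1 in old ON cone bipolar cells, and 1 gene 2-fold above ON cone cells, as did mean per-cell CPM, sub-cluster 0 alone and classes from each cell's own markers. That last setting gave 2 genes past 1.5-fold in old and 2 in adult ON cone bipolar cells, and 99 Grm6 UMIs in 30 OFF-assigned cells, of which 29 lay in ON cone clusters. Keeping Scrublet calls gave 1 Grm6 UMI in OFF cells. Sub-cluster 2 alone gave 1 gene (old) and 2 genes (adult) past 1.5-fold. Without OFF sub-cluster 10 the median log2 ratio was 3.35. A pseudocount of 1 shared 4 of the 10 genes most like Grm6. With at least 50 UMIs the shares of all genes past 1.5-fold were 8.75 and 7.21% (rod bipolar, old and adult), 11.2 and 7.88% (ON cone) and 9.47 and 8.89% (OFF). The cause was not tested except where cells or genes were left out by construction.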
